A study of Mus musculus with 3 samples.

Results

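The mitosis and G2/M genes are 39 genes that drive and carry out cell division. They were chosen by symbol as mitotic kinases and as spindle, kinetochore and cytokinesis genes. All 39 were among the 28074 gene symbols of the deposited table, each on 1 row, and all 39 were among the 15181 genes with a mean of at least 1 TPM (a transcript abundance that is corrected for length and scaled to a fixed total per library). RNA was measured in 3 acute myeloid leukemias (AML), each from the spleen of its own moribund mouse and enriched for cells bearing c-Kit, a receptor of immature blood cells. All 3 mice were labelled miR196b-/-, with Flt3ITD/ITD, an activating internal tandem duplication of the receptor Flt3, and Mx1Cre, an interferon-inducible recombinase that acts in blood cells and other tissues. Dnmt3a is given as fl/fl in the genotype field and as +/- in the titles. No inducing agent, age or sex was given, and mice 1, 2 and 3 are numbered by sample record only.

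These mice form 1 group. The leukemias with miR-196b intact that the study set against them belong to another series. Their 3 columns stand in the deposited table but were not used, and no test between groups was made. The values describe how the 3 knockout leukemias resemble and differ from each other. Values in TPM hold no depth, which is unknown here, and the spread between mice is the only error that can be given. Kit stood at 139, 149 and 133 TPM in mice 1, 2 and 3 and Flt3 at 146, 157 and 106 TPM.

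Mitosis is switched on by the kinase Cdk1 bound to cyclins A and B, and Polo-like and Aurora kinases then build the spindle and attach chromosomes to it at kinetochores. A checkpoint holds back the anaphase-promoting complex (APC/C), a ubiquitin ligase, until every chromosome is attached, after which the ligase removes cyclin B and securin and the cell divides. Most of these genes are silent in resting cells and are transcribed together late in the cell cycle. The complexes known for this contain Lin54, which binds an element called the cell cycle genes homology region (CHR), and often act beside NF-Y, which binds CCAAT boxes.

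The promoters are shown first because the letters of both elements recur in them. A RefSeq promoter window (build GRCm38.p6, 250 bases before to 50 after the annotated start) was found for 32 of the 39 genes. The genes without one were Ccna2, Tpx2, Incenp, Aurkb, Cdc25c, Spc24 and Kif20a. The CHR was searched as TTTGAA or TTCGAA and the CCAAT box as CCAAT, both on either strand. Ccnb2, which encodes cyclin B2, and Cdk1 show the arrangement at length, from 130 bases before the start. For each of 7 other roles 1 window of 30 bases follows, taken from the most abundant member with a CHR match. The genes of the chromosomal passenger complex, described below, are not shown, although Cdca8 among them had a CHR match. Sequences run 5′ to 3′ on the gene's strand, and capitals mark the CHR and CCAAT letters (TTCAAA and ATTGG where the match is on the other strand).
Ccnb2, chr9:70421541-70421684, minus strand: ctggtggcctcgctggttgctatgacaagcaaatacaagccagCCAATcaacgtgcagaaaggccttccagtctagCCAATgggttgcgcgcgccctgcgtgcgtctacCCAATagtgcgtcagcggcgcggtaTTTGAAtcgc
Cdk1, chr10:69352913-69353042, minus strand: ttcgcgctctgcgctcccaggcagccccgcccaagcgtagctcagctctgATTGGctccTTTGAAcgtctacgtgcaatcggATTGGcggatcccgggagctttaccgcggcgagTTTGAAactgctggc
Plk1, chr7:122159453-122159482, plus strand: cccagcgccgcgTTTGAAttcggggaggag
Bub1b, chr2:118598231-118598260, plus strand: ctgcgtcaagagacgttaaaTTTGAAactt
Cenpa, chr5:30666890-30666919, plus strand: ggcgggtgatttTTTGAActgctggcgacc
Kif11, chr19:37376351-37376380, plus strand: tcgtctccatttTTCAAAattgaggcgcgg
Prc1, chr7:80294434-80294463, plus strand: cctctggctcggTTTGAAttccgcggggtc
Ube2c, chr2:164769888-164769917, plus strand: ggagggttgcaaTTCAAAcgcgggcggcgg
Top2a, chr11:99024195-99024224, minus strand: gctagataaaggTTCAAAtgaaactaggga

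A CHR match lay in the window of 25 of the 32 genes (78.1%), against 16.9% of 9935 expressed genes with a window and 19.2% of all 32851 windows. CCAAT letters were found in 24 of the 32 (75.0%), against 43.1% of expressed genes and 37.4% of all windows. Both were found in 22 (68.8%), against 7.23% of expressed genes. Other cell cycle genes shared much of this. Of 68 further G2/M genes with a window, 67.6% had CHR letters, 66.2% CCAAT letters and 47.1% both, and of 23 S phase genes 17.4% had CHR letters and 69.6% CCAAT letters. Matches of the CHR and CCAAT letters may share a base. The letters TATAAA, searched as a contrast, were in 1 of the 32 windowed genes (3.12%), against 894 of the 9935 expressed genes. The E2F letters TTTCGCGC were also in 1 of the 32, against 0.755% of expressed genes.

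The CHR matches gathered at the start site. Within 50 bases on either side of it, an interval chosen after the positions were seen, 23 of 32 genes (71.9%) had a match, against 4.60% of expressed genes, 52.9% of the further G2/M genes and 8.70% of the S phase genes. CCAAT matches lay mostly upstream of it: 13 of the 34 windows of these genes had one in the 25 bases that begin 75 bases before the start (38.2%), against 8.77% of the windows of expressed genes. That bin held the CCAAT peak of expressed genes too, so the position was not particular to the mitotic genes. In 8 of the 32 genes, against 3.01% of expressed genes and 8 of the 68 further G2/M genes, a pair of CCAAT boxes stood 30 to 35 bases apart, an interval also chosen afterwards. The pairs were 32 bases apart in Cdk1, Ccnb1, Aurka and Spc25, 33 in Ccnb2 and Hmmr, 31 in Ube2c and 34 in Cdca8. No CHR match was found in the windows of Birc5, Ccnb1, Cenpe, Mad2l1, Nuf2, Nusap1 and Pttg1. A match is a description of the letters and does not show that a factor binds there.

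**Figure D1:**
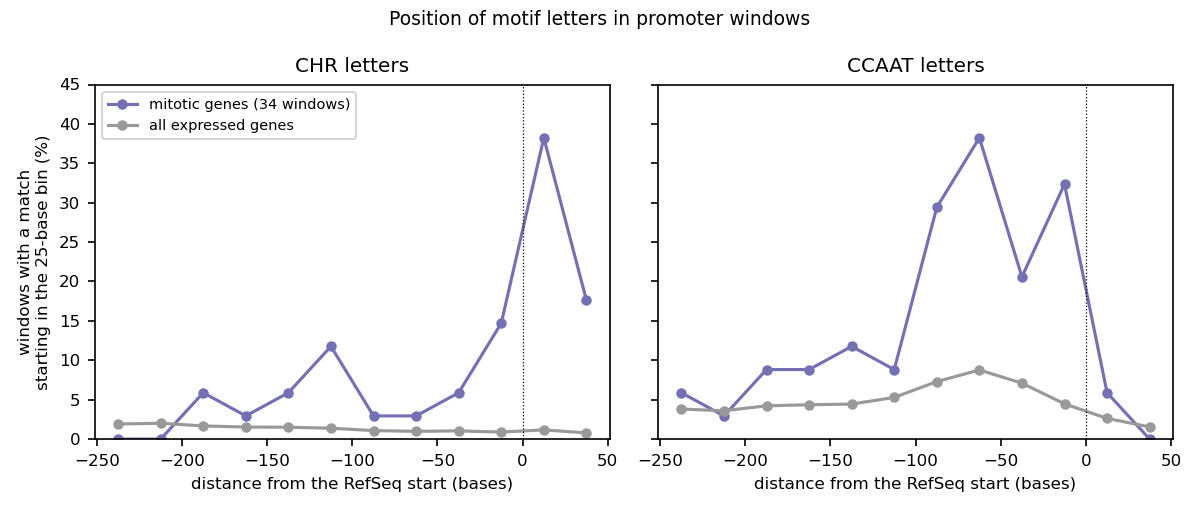
Share of promoter windows (percent) with CHR letters (left) or CCAAT letters (right) starting in each 25-base bin, against distance from the RefSeq start in bases, for 34 windows of the mitotic genes and for all expressed genes. The CHR share of the mitotic genes peaks just after the start, where 13 of 34 windows have a match, and the CCAAT share peaks before it.

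The 39 genes were expressed at moderate to high levels, with means from 9.88 TPM (Cdc25c) to 306 TPM (Top2a) and a median over the genes of 50.7 TPM. The median gene stood at percentile 77.8 of expressed genes. Together they made up 0.249% of all listed TPM in mouse 1, 0.220% in mouse 2 and 0.290% in mouse 3. The list's median on the log2(TPM + 1) scale was 5.57, 5.45 and 5.87 in the 3 mice, a mean of 5.63 ± 0.21 (SD, n = 3), against a median over all expressed genes of 4.28, 4.15 and 4.14. In bulk RNA, fewer dividing cells and less of these transcripts per cell cannot be told apart.

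The leukemia of mouse 3 had the highest value for 32 of the 39 genes, while 20.3% of all expressed genes were highest there. Of the others 5 were highest in mouse 1, against 48.6% of expressed genes, and 2 in mouse 2, against 31.1%. The leukemia of mouse 2 had the lowest value for 34 of 39, against 33% of all expressed genes, and no mitotic gene was lowest in mouse 3, against 42.6%. The full order mouse 3, mouse 1, mouse 2 was seen in 29 of 39 genes, against 10.3% of expressed genes. The differences were small: 26 of 39 genes were at least 1.25-fold higher in mouse 3 than in mouse 2 on the log2(TPM + 1) scale (12.1% of all expressed genes), a fold chosen after the values were seen. None of the 39 differed by 2-fold or more between mice 3 and 2 (2.9% of all expressed genes), between mice 3 and 1 (5.38%) or between mice 1 and 2 (4.64%).

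The list's median difference was 0.40 log2 units between mice 3 and 2, 0.17 between mice 3 and 1, and 0.19 between mice 1 and 2. The same medians over all expressed genes were -0.05, -0.13 and 0.08. Setting the libraries to a common upper quartile moved mouse 3 by 0.14 relative to mouse 1, since it shifted mouse 1 by -0.08 and mouse 3 by 0.07. After that scaling the list's medians were 0.45, 0.31 and 0.10, those of all expressed genes were 0.00, 0.00 and 0.00, and 38 of 39 genes were highest in mouse 3. Only 28 were then lowest in mouse 2 and 11 in mouse 1, because Aurka, Birc5, Cenpa, Cenpf, Ube2c and Top2a, which were close in mice 1 and 2, changed places there. The median SD per gene was 0.22 over the list, beside 0.21 over all expressed genes. After upper-quartile scaling these were 0.25 and 0.19. They were 0.28 and 0.14 without mouse 1, 0.12 and 0.18 without mouse 2, and 0.16 and 0.19 without mouse 3. The list's was the larger with and without scaling. With 0.1 in place of 1 in log2(TPM + 1) they were 0.22 and 0.23, so which was larger depended on this constant and on the mice included.

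**Figure D2:**
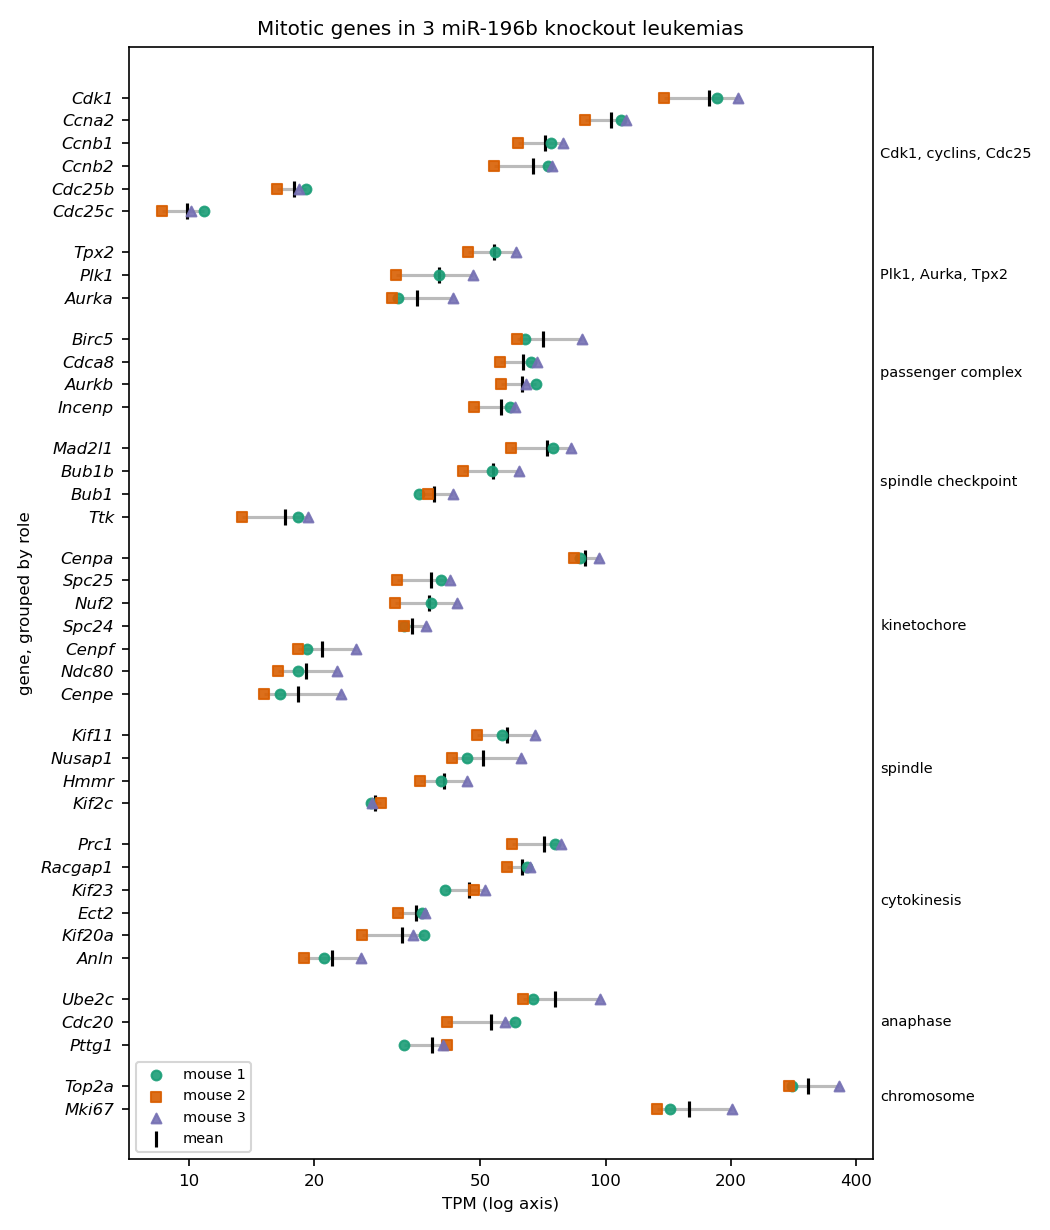
TPM (log axis) of the 39 mitotic genes in each of the 3 mice, grouped by role, with the grey line from the lowest to the highest mouse and the black tick at the mean. Mouse 3 (triangles) lies at the right end of the line for 32 genes and mouse 2 (squares) at the left end for 34 in the values as deposited (28 after upper-quartile scaling).

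The genes of mitotic entry were led by Cdk1, the kinase that starts mitosis. Cdk1 was at 185, 138 and 208 TPM in mice 1, 2 and 3, a mean of 177 ± 35.6 TPM (SD, n = 3, as for every ± below). It was 1.51-fold higher in mouse 3 than in mouse 2 and 1.34-fold higher in mouse 1 than in mouse 2. Mouse 2 was the lowest, also after upper-quartile scaling.

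Its cyclin partners were lower and followed the same order. Ccna2, the cyclin of S and G2 phase, was at 109, 89.1 and 112 TPM. Ccnb1 was at 73.8, 61.6 and 79.1 TPM and Ccnb2 at 72.6, 54.1 and 74.2 TPM. In the values as deposited, mice 1 and 3 lay close together in each of the 3 cyclins and mouse 2 below them. Upper-quartile scaling shifted mouse 1 by -0.08 and mouse 3 by 0.07 log2 units. It kept the order but widened the gap between mice 1 and 3 and narrowed that between mice 1 and 2. The ratio of Cdk1 to both B cyclins summed was 1.27, 1.20 and 1.36, a mean of 1.27 ± 0.08, and that of Ccnb1 to Ccnb2 was 1.07 ± 0.06. Such ratios within a library do not change with scaling, and these varied less between mice than the levels did. A pseudogene row, Ccnb2-ps, held 4.06, 4.65 and 4.26 TPM, and reads shared between the copies may be split between these rows.

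The phosphatases that activate Cdk1 were the scarcest of this role. Cdc25b was at 19.1, 16.2 and 18.4 TPM and Cdc25c at 10.9, 8.65 and 10.1 TPM, the lowest mean of all 39 genes. Both were slightly higher in mouse 1 than in mouse 3, where they stood at 0.963 and 0.934 of the value in mouse 1, and the ratio of Cdc25b to Cdc25c was steady at 1.82 ± 0.06. After upper-quartile scaling both were highest in mouse 3.

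Plk1, the Polo-like kinase that matures centrosomes and acts through much of mitosis, was at 39.9, 31.4 and 48.0 TPM, 1.53-fold higher in mouse 3 than in mouse 2. Aurka, the Aurora kinase of the spindle poles, was at 31.8, 30.8 and 42.9 TPM, so that mouse 3 stood apart from the other mice. Its activator Tpx2 was at 54.3, 46.7 and 61.1 TPM. All 3 genes were in the order mouse 3, mouse 1, mouse 2 as deposited, and Aurka had mice 1 and 2 reversed after upper-quartile scaling.

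The chromosomal passenger complex corrects faulty attachments and joins the Aurora kinase Aurkb to the scaffold Incenp, to survivin (Birc5) and to borealin (Cdca8). Its genes had similar means, 62.9 ± 6.04 TPM for Aurkb, 56.1 ± 6.69 for Incenp, 70.9 ± 14.5 for Birc5 and 63.4 ± 6.66 for Cdca8. The ratio of Cdca8 to Incenp was 1.12, 1.15 and 1.12 in mice 1, 2 and 3, a mean of 1.13 ± 0.02. Birc5 left this pattern: its ratio to Incenp was 1.08, 1.27 and 1.44, as it was at 64.0, 61.3 and 87.6 TPM. Aurkb was at 68.0, 56.3 and 64.5 TPM, and the ratio of Aurkb to Aurka was 2.14, 1.83 and 1.50, lowest in mouse 3.

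Among the spindle checkpoint genes, Mad2l1, which binds and restrains Cdc20, was at 74.9, 59.3 and 82.7 TPM. Bub1b, the BubR1 component of the checkpoint inhibitor, was at 53.4, 45.5 and 61.9 TPM. Ttk, the Mps1 kinase that starts the checkpoint signal, was at 18.2, 13.4 and 19.3 TPM. These 3 genes were lowest in mouse 2. Bub1, a kinase at kinetochores, was at 35.7, 37.5 and 43.2 TPM and was lowest in mouse 1, although mouse 3 was again the highest.

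All 7 kinetochore and centromere genes were highest in mouse 3. Cenpa, the histone H3 variant that marks centromeres, was the most abundant, at 87.0, 84.2 and 96.5 TPM, and its SD of 0.10 log2 units was one of the smaller ones. The kinetochore motor Cenpe was at 16.6, 15.1 and 23.1 TPM, and the large kinetochore protein Cenpf at 19.2, 18.3 and 25.2 TPM. In both, mice 1 and 2 were close and mouse 3 apart, and the ratio of Cenpe to Cenpf was 0.869 ± 0.046.

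The 4 subunits of the Ndc80 complex, which holds microtubules, were not equally abundant as transcripts. Nuf2, Spc24 and Spc25 had means of 37.7 ± 6.40, 34.2 ± 2.42 and 38.0 ± 5.69 TPM, which differed by less than their larger SD, while Ndc80 itself had 19.1 ± 3.25 TPM. Ndc80 was at 18.2, 16.4 and 22.7 TPM in mice 1, 2 and 3. Per transcript length, the ratio to Ndc80 was 1.98 ± 0.10 for Nuf2, 1.81 ± 0.19 for Spc24 and 2.21, 1.93 and 1.87 in mice 1, 2 and 3 for Spc25, so each partner was well above Ndc80 in every mouse. Spc24 was nearly level between mice 1 and 2, at 32.8 and 32.9 TPM, with 37.0 TPM in mouse 3.

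Of the spindle genes, Kif11, the Eg5 motor that pushes spindle poles apart, was at 56.5, 49.2 and 67.9 TPM. Nusap1, which bundles microtubules at chromosomes, was at 46.6, 42.8 and 62.8 TPM, and Hmmr, a spindle-associated protein, at 40.2, 35.8 and 46.5 TPM. All 3 had the order mouse 3, mouse 1, mouse 2. Kif2c, the MCAK motor that takes microtubule ends apart, did not: it was at 27.3, 28.9 and 27.6 TPM, and its SD of 0.04 log2 units was the smallest of the 39 genes.

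Of the 6 cytokinesis genes 5 were lowest in mouse 2, and Kif23 was the exception. Prc1, which bundles the midzone microtubules, was at 75.5, 59.6 and 78.2 TPM, and Anln, the anillin of the contractile ring, at 21.2, 18.9 and 25.9 TPM. Ect2, the exchange factor that activates RhoA at the cleavage plane, was at 36.3, 31.8 and 36.9 TPM. These were lowest in mouse 2. The centralspindlin partners, which work as 1 complex, differed: Racgap1 was at 64.8, 57.9 and 66.0 TPM, whereas the motor Kif23 was lowest in mouse 1, at 41.2, 48.3 and 51.2 TPM. Their ratio was 1.57, 1.20 and 1.29. The midzone motor Kif20a was at 36.7, 26.1 and 34.4 TPM, highest in mouse 1 as deposited.

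The 3 genes of anaphase each set a different mouse apart. Ube2c, the ubiquitin-conjugating enzyme of the APC/C, was at 67.1, 63.3 and 97.1 TPM and had the largest SD of the 39 genes, 0.33 log2 units. It was 1.53-fold higher in mouse 3 than in mouse 2 and 1.45-fold higher than in mouse 1, so only mouse 3 stood apart. Cdc20, the mitotic activator of the APC/C, was instead low in mouse 2 alone, at 60.7, 41.6 and 57.4 TPM. Pttg1, the securin that holds separase in check, was low in mouse 1 alone, at 32.8, 41.6 and 40.8 TPM. The ratio of Cdc20 to Fzr1, the APC/C activator of late mitosis and G1, was 1.30, 1.18 and 1.48.

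The chromosome genes were the most abundant with Cdk1. Top2a, the topoisomerase that untangles sister chromatids, was at 280, 276 and 363 TPM, and Mki67, the Ki-67 protein that coats mitotic chromosomes, at 143, 133 and 201 TPM. Top2a stood at percentile 97.5 of expressed genes. In both, mouse 3 was apart from mice 1 and 2. Mki67 was 1.40-fold and Top2a 1.30-fold higher in mouse 3 than in mouse 1. The means of Cdk1 (177 ± 35.6 TPM) and Mki67 (159 ± 36.7 TPM) differed by less than either SD, but Cdk1 was the higher in every mouse. Both lay below Top2a at 306 ± 49.4 TPM.

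**Figure D3:**
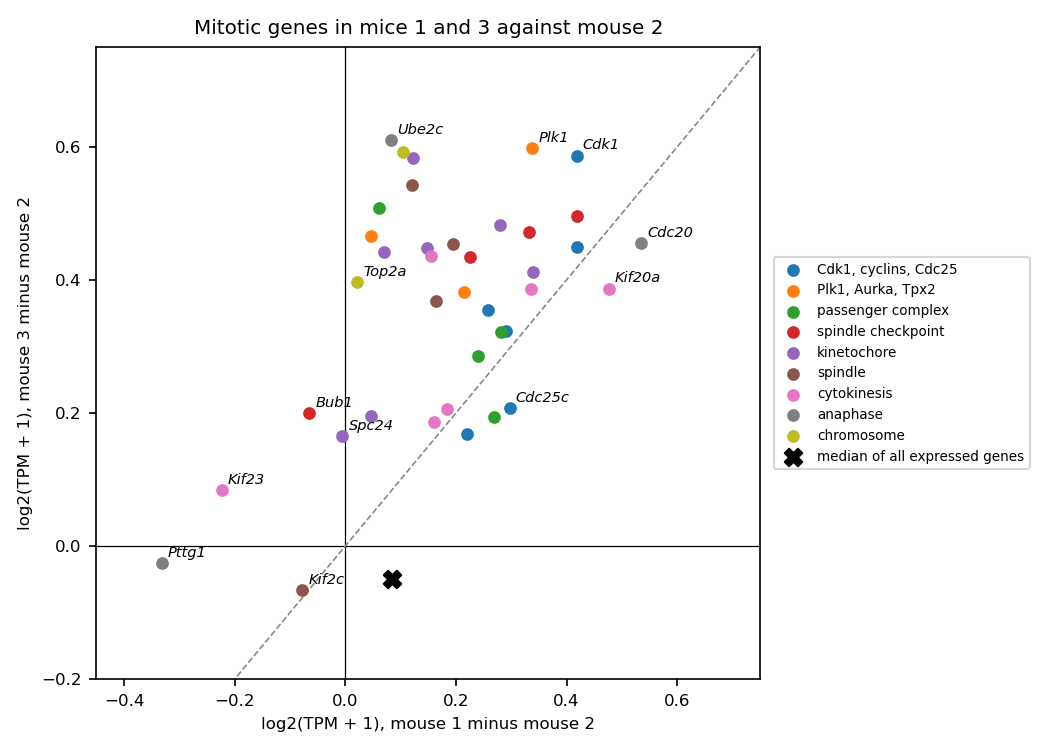
Difference in log2(TPM + 1) of each mitotic gene between mice 3 and 2 (vertical) against that between mice 1 and 2 (horizontal), colored by role, with the median of all expressed genes as a cross and the dashed line where mice 1 and 3 are equal. Of the 39 points 37 lie above 0 on the vertical axis, and Pttg1 and Kif23 lie farthest to the left. The axes share mouse 2, so the placement of the points along a common diagonal carries no meaning of its own.

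Sets of genes that moved in a different order can be read from the plot of differences against mouse 2. Mouse 3 was above mouse 2 in 37 of 39 genes (42.8% of all expressed genes), with Kif2c and Pttg1 as the exceptions at -0.07 and -0.03 log2 units. After upper-quartile scaling Kif2c alone was left below. Mouse 1 was above mouse 2 in 34 of 39 genes (58.9% of all expressed genes), and the exceptions were Bub1, Spc24, Kif2c, Kif23 and Pttg1. The widest gaps between mice 3 and 2 were those of Ube2c (0.61), Plk1 (0.60), Mki67 (0.59), Cdk1 (0.59) and Cenpe (0.58).

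Other genes of the cell cycle were read from lists. A list of 82 further G2/M genes, such as condensins, other kinesins and kinetochore subunits, had a median difference of 0.33 log2 units between mice 3 and 2. Of the 82, 78 were higher in mouse 3 than in mouse 2 (42.8% of all expressed genes). As deposited, 52 were highest in mouse 3 (20.3% of all expressed genes) and 71 lowest in mouse 2 (33%). After upper-quartile scaling 71 were highest in mouse 3 (30.5%) and 60 lowest in mouse 2 (33.5%). The most abundant was the condensin subunit Smc4 at 239, 220 and 251 TPM, and the scarcest Ska1, a kinetochore protein, at 1.57, 1.73 and 1.51 TPM. The widest was Haspin, a histone H3 kinase, which went the other way, at 49.5, 52.1 and 30.2 TPM.

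Genes of DNA replication and S phase had a median difference of 0.40 log2 units between mice 3 and 2. All 30 listed were higher in mouse 3 than in mouse 2 (42.8% of all expressed genes). Pcna, the replication clamp, was at 458, 441 and 516 TPM, and Cdc6, a loader of the replicative helicase, at 23.4, 21.8 and 33.3 TPM. The median of the mitotic list less that of the S phase list was -0.16, -0.01 and 0.04 log2 units in mice 1, 2 and 3, a mean of -0.04 ± 0.10. The higher values in mouse 3 were therefore shared by S phase genes and were not particular to mitosis. Between mice 3 and 1 the list medians were 0.17 for the mitotic genes, 0.07 for the other G2/M genes and 0.07 for the S phase genes, a gap that was not tested. After upper-quartile scaling they were 0.31, 0.22 and 0.21, so the size of the gap relative to the medians depended on the scaling.

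Regulators of this program and the core APC/C had smaller median differences between mice 3 and 2 than the mitotic genes. Of 20 transcription regulators 16 were higher in mouse 3 than in mouse 2 (42.8% of all expressed genes), with a median difference of 0.10 log2 units. Their median was 0.01 between mice 3 and 1 and 0.06 between mice 1 and 2. Foxm1, an activator of G2/M genes, was at 27.4, 31.5 and 36.5 TPM and Mybl2, which joins the Lin54 complex, at 53.9, 39.2 and 47.1 TPM. Lin54 was at 27.2, 26.6 and 28.6 TPM, nearly level. E2f7, a repressor of the E2F family, was highest in mouse 2, at 77.3, 110 and 61.6 TPM. Its difference of -0.82 log2 units between mice 3 and 2 was wider than that of any mitotic gene. Of 15 genes of the APC/C, Fzr1 included, 10 were higher in mouse 3 than in mouse 2 (42.8% of all expressed genes), with a median difference of 0.12. Between these mice Ube2c and Cdc20 moved more than that median. The APC/C list was not flat in the other pairs. Its median was -0.21 between mice 3 and 1 and 0.17 between mice 1 and 2. After upper-quartile scaling these were -0.07 and 0.08. Housekeeping genes had a median difference of 0.03 between mice 3 and 2, but -0.21 between mice 3 and 1 and 0.31 between mice 1 and 2. After upper-quartile scaling these were 0.08, -0.06 and 0.22.

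**Figure D4:**
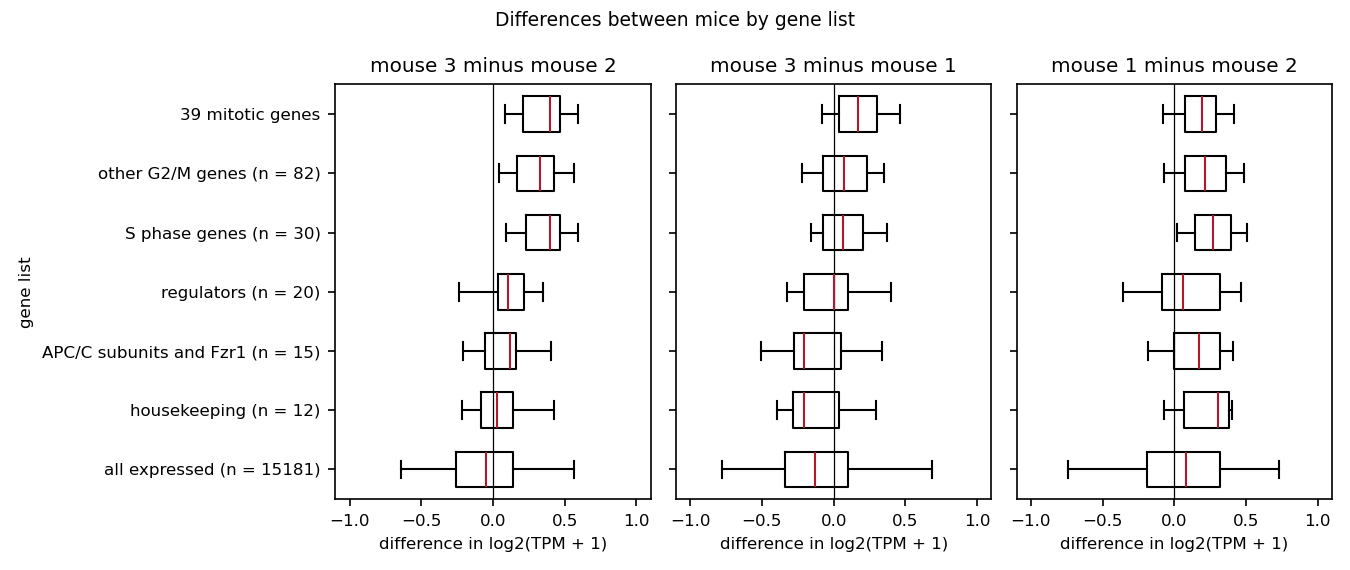
Differences in log2(TPM + 1) between pairs of mice for the mitotic genes, 5 other lists and all expressed genes. Boxes span the quartiles with the median in red, and whiskers reach from the 5th to the 95th percentile of genes. In the left panel the boxes of the mitotic, other G2/M and S phase genes lie above 0, at medians of 0.40, 0.33 and 0.40, beside -0.05 for all expressed genes.

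Marker genes of blood cell types also differed between the mice. The 10 erythroid genes matched summed to 370, 262 and 549 TPM. Most of each sum came from Car2, at 160, 98.5 and 261 TPM, and Tfrc, at 150, 120 and 176 TPM. The 9 of these genes that were expressed all had the order mouse 3, mouse 1, mouse 2, against 10.3% of all expressed genes. It is also the commonest order of the mitotic genes. The 12 late neutrophil granule genes summed to 2521, 6538 and 21653 TPM, with S100a8 at 1034, 2529 and 8646 TPM, so mouse 3 was again the highest but mouse 1 the lowest. The 8 dendritic cell genes summed to 1250, 2265 and 1449 TPM, highest in mouse 2. The 8 B cell genes summed to 50.7, 94.6 and 130 TPM, the 10 T and NK cell genes to 34.6, 37.5 and 42.0 TPM and the 9 macrophage genes to 29.5, 46.9 and 59.4 TPM. Ighm alone made up most of the B cell sum, at 32.2, 76.8 and 108 TPM. Lck, the largest part of the T and NK sum, was highest in mouse 1, at 18.2, 14.5 and 16.4 TPM. Of the expressed genes, 5 of 6 B cell genes and 4 of 7 T and NK cell genes were highest in mouse 3, against 20.3% of all expressed genes. The 9 genes of immature blood cells summed to 1122, 1032 and 937 TPM, a sum lowest in mouse 3. Its members were not uniform: as deposited 6 were lowest in mouse 3, 2 in mouse 2 and 1 in mouse 1. A lowest value in mouse 3 was common in the deposited values, at 42.6% of expressed genes. Once the libraries had a common upper quartile, only 4 of the 9 were lowest there. Among the scarcest markers were Cd3g of T cells (mean 0.476 TPM) and Hba-a1 of erythroid cells (0.584 TPM), and the macrophage receptor Marco was listed at 0 in every mouse. The most abundant gene of each list, that of immature blood cells aside, was S100a8 of neutrophils, the dendritic and progenitor factor Irf8 (mean 915 TPM), the erythroid carbonic anhydrase Car2 (173 TPM), the B cell heavy chain Ighm (72.2 TPM), Emr1 of macrophages (18.6 TPM) and the T cell kinase Lck (16.4 TPM). In bulk RNA, leukemic cells and other cells cannot be told apart as the source of these transcripts. Any part of the cell make-up in the differences of the mitotic genes was not tested.

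Members with and without CHR letters were also set side by side. The 25 genes with a match had a median difference of 0.43 log2 units between mice 3 and 2, and the 7 windowed genes without one had 0.48. Over the 1682 expressed genes with a CHR match anywhere in the window the median was -0.03, and over the 8253 without one -0.05. Matches near the start were not set apart here, and the part of the CHR in the differences was not tested.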

How the data were processed

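RNA of c-Kit-enriched spleen cells from 3 leukemic mice was sequenced in paired reads of 150 nt, per the labels' protocols. The submitters' processing notes name kallisto and mm10. The authors deposited 1 table whose name says log2 FPKM, but its values were linear, never below 0, and summed to 929731, 927169 and 928490 in mice 1, 2 and 3, so the deposited values were read as TPM. Its 3 columns of another series were not used. Rows without a symbol (795, up to 0.608% of a column) or with a date as symbol (27) were left out, and 90 symbols on several rows were summed. Differences are on the log2(TPM + 1) scale, which understates those of low genes. Genes with a mean of at least 1 TPM are called expressed. With 1 group no test was made.

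The members and lists were chosen with earlier results of these data known. Named genes are all members and, from each other list, genes picked by highest mean, lowest mean or largest SD, with Foxm1, Mybl2, Lin54, Fzr1, Kit, Flt3 and S100a8. Tfrc was named afterwards for its part in the erythroid sum. Cd3g, Marco and Hba-a1 are lowest means of their lists. Some items picked by these rules are not reported here. Of the listed genes, Hbb-bs and Hbb-bt had no match, and 7 matched by an older symbol. Promoter windows are RefSeq's. Bases 26 to 50 after the start were found in a GENCODE M21 transcript of the gene for 29 of 32 genes and on the reverse strand for 0. List statistics were tested on simulated data. Versions were pandas 2.3.3 and numpy 2.4.6 under Python 3.11.15, with matplotlib 3.10.9 for plots.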

Additional observations from a re-analysis of the deposited data

How the results depend on the processing

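Alternatives were a pseudocount of 0.1, a background of genes with a mean of at least 5 TPM or of all listed genes, upper-quartile and median-of-ratios scaling, symbols on several rows left out, and each mouse left out in turn. No paired analysis was possible because the series has 1 group. Of 99 recomputed list results 98 kept their direction and stayed within their spread or within 1.5 times a count. The exception was the median SD of the mitotic list, 0.22 with all mice, which ranged from 0.12 (without mouse 2) to 0.28 (without mouse 1) when a single mouse was left out. Pairs of mice give smaller or larger SDs by construction, and mouse 2 was the lowest for most genes. Differences between 2 mice and counts of the order of mice could not be recomputed without those mice. Of 351 recomputed member levels 350 stayed within their SD, and Kif2c, whose SD is small, moved with the pseudocount. Both counts include many results that could not have moved. A changed background does not enter the levels of the mitotic genes or their differences between mice. No member was on several rows, and leaving out a single mouse cannot move a mean by its SD. The counts are therefore no measure of robustness. The share of all expressed genes highest in mouse 3 rose from 20.3% to 30.5% with upper-quartile and 30.7% with median-of-ratios scaling. The depth reached is unknown, so counting error in the scarcer genes cannot be stated.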

Other observations

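Of the 82 further G2/M genes, those not higher in mouse 3 than in mouse 2 were Cenpi, Ska1, Esco2 and Haspin, which were chosen after their values were seen. Cenpi is a centromere protein and Esco2 an acetyltransferase of sister chromatid cohesion.

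Among the core APC/C subunits, Anapc1, the scaffold, was the most abundant at 142, 127 and 122 TPM in mice 1, 2 and 3, and Anapc10 the scarcest at 10.3, 11.7 and 11.3 TPM. The widest, Anapc16, was at 24.6, 14.1 and 19.0 TPM, lowest in mouse 2. Of the transcription regulators, Tfdp1, the dimer partner of E2F proteins, was the most abundant at 174, 125 and 160 TPM, and Lin52, a subunit of the Lin54 complex, the scarcest at 9.76, 10.7 and 11.1 TPM. Gins3, a subunit of the replicative helicase, was the scarcest S phase gene at 7.40, 7.31 and 8.71 TPM.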
